A study of Sus scrofa with 10 samples.

Results

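Expression of 10 genes that build, supply or remove parts of the Lewis X sugar was compared between pig fetal fibroblasts that carried this sugar on their surface and those that did not. The genes were B4GALT1, B4GALT4, B3GNT5, GMDS, TSTA3, SLC35C1, FPGT, ST3GAL4, FUCA1 and FUCA2. They were found by their symbol in the array's annotation, which named 6765 genes in all, and were read by 13 of the 23999 probe sets tested.

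The SSEA1+ fraction and the SSEA1- fraction were obtained by magnetic sorting of cultured fibroblasts with an antibody against SSEA-1. Each fraction was sampled 5 times and each sample was hybridised to its own Affymetrix porcine array. All cells came from Danish Landrace/Yorkshire x Duroc embryos at fetal day 24, from tissue without the head, and were grown in serum-containing medium on gelatin. The labels name no transgene and no drug. The series text calls the 5 replicates biological, without saying whether each was a separate animal, litter or culture, and the purity of the fractions is not given in the sources used here.

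SSEA-1 is not a protein but a carbohydrate, Lewis X, which is a lactosamine unit of galactose and N-acetylglucosamine with a fucose added to the N-acetylglucosamine. A cell makes it in the Golgi on glycoproteins and glycolipids: galactosyltransferases and N-acetylglucosaminyltransferases lay down the chain, and an alpha-1,3-fucosyltransferase, in mice chiefly FUT4 or FUT9, adds the fucose from the donor GDP-fucose. The donor is made in the cytosol from GDP-mannose or from salvaged fucose and is carried into the Golgi by a transporter. A sialic acid added to the terminal galactose gives sialyl Lewis X in place of Lewis X, and lysosomal fucosidases remove fucose when the glycans are broken down. FUT4 and FUT9 had no probe set under those symbols and were not analysed here.

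The values were log2 signals, so that a difference of 1 is a doubling, and differences are given as SSEA1+ minus SSEA1-. Among 12 measured fibroblast markers all 12 were above the background level on all 10 arrays, and their mean signal was 7.61 to 7.88 in the SSEA1+ fraction and 7.64 to 7.87 in the SSEA1- fraction. None of 6 leukocyte markers was above background on every array, with a mean of 0.31 to 0.39 in the SSEA1+ fraction and 0.21 to 0.39 in the SSEA1- fraction. Epithelial markers averaged 1.30 to 1.81 in the SSEA1+ fraction and 1.21 to 1.81 in the SSEA1- fraction over 8 genes. Of these, 5 were above background on every array, with KRT8 the highest at means of 5.42 in SSEA1+ and 5.47 in SSEA1-. Over 7 marker lists, 1 of 12 fibroblast genes rose and 1 of 7 endothelial genes fell, against 3.1% of all genes higher and 4.05% lower. These were COL1A2, by 1.19 (limma adjusted p = 0.000414), and ERG, by 0.42 (limma adjusted p = 0.0406). With arrays of one replicate number treated as a pair, THY1 and KRT19 also rose (limma adjusted p = 0.0147 and 0.0269). POSTN also fell in that fit (limma adjusted p = 0.000788). The endothelial list averaged 0.68 to 0.79 in SSEA1+ and 0.71 to 0.80 in SSEA1-, and the muscle list 3.34 to 3.69 in SSEA1+ and 3.03 to 3.61 in SSEA1-. Only 2 of 4 muscle genes, DES and ACTC1, were above background on every array. Their means were 7.20 and 5.86 in SSEA1+ and 6.92 and 5.70 in SSEA1-. The pluripotency list averaged 0.44 to 0.51 in SSEA1+ and 0.35 to 0.53 in SSEA1-. The background level was 0.35, below which 95% of the controls for absent sequences lay. The fractions also differed in the poly-A spike-in controls: minus the hybridisation controls, these read -3.45 to -2.66 in the SSEA1+ fraction and -4.32 to -3.80 in the SSEA1- fraction. Of the 3′ over 5′ signals that reflect RNA integrity, that of EF1A was 0.32 ± 0.09 in SSEA1+ and 0.22 ± 0.01 in SSEA1- on the log2 scale (SD, n = 5 each; exact two-sided permutation p = 0.00794). Those of actin and GAPDH gave exact permutation p-values of 0.421 and 0.317. The part of RNA integrity and of the marker lists in the results was not tested.

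None of the 13 probe sets, and so none of the 10 genes, passed an adjusted p of 0.05 in limma, against 5.83% of all probe sets. The signals closest to a difference were those of B4GALT1, which read higher in the SSEA1+ fraction in every replicate, and GMDS, which read lower in every replicate. Both passed when the arrays of one replicate number were treated as a pair, in a fit with the replicate block that called 11.5% of all probe sets. The labels give the number but do not state such a pairing. The other 8 genes had differences between -0.15 and 0.04 on their brightest probe sets. In bulk samples such as these, a higher signal from more cells of a type and one from more RNA per cell cannot be told apart.

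**Figure D1:**
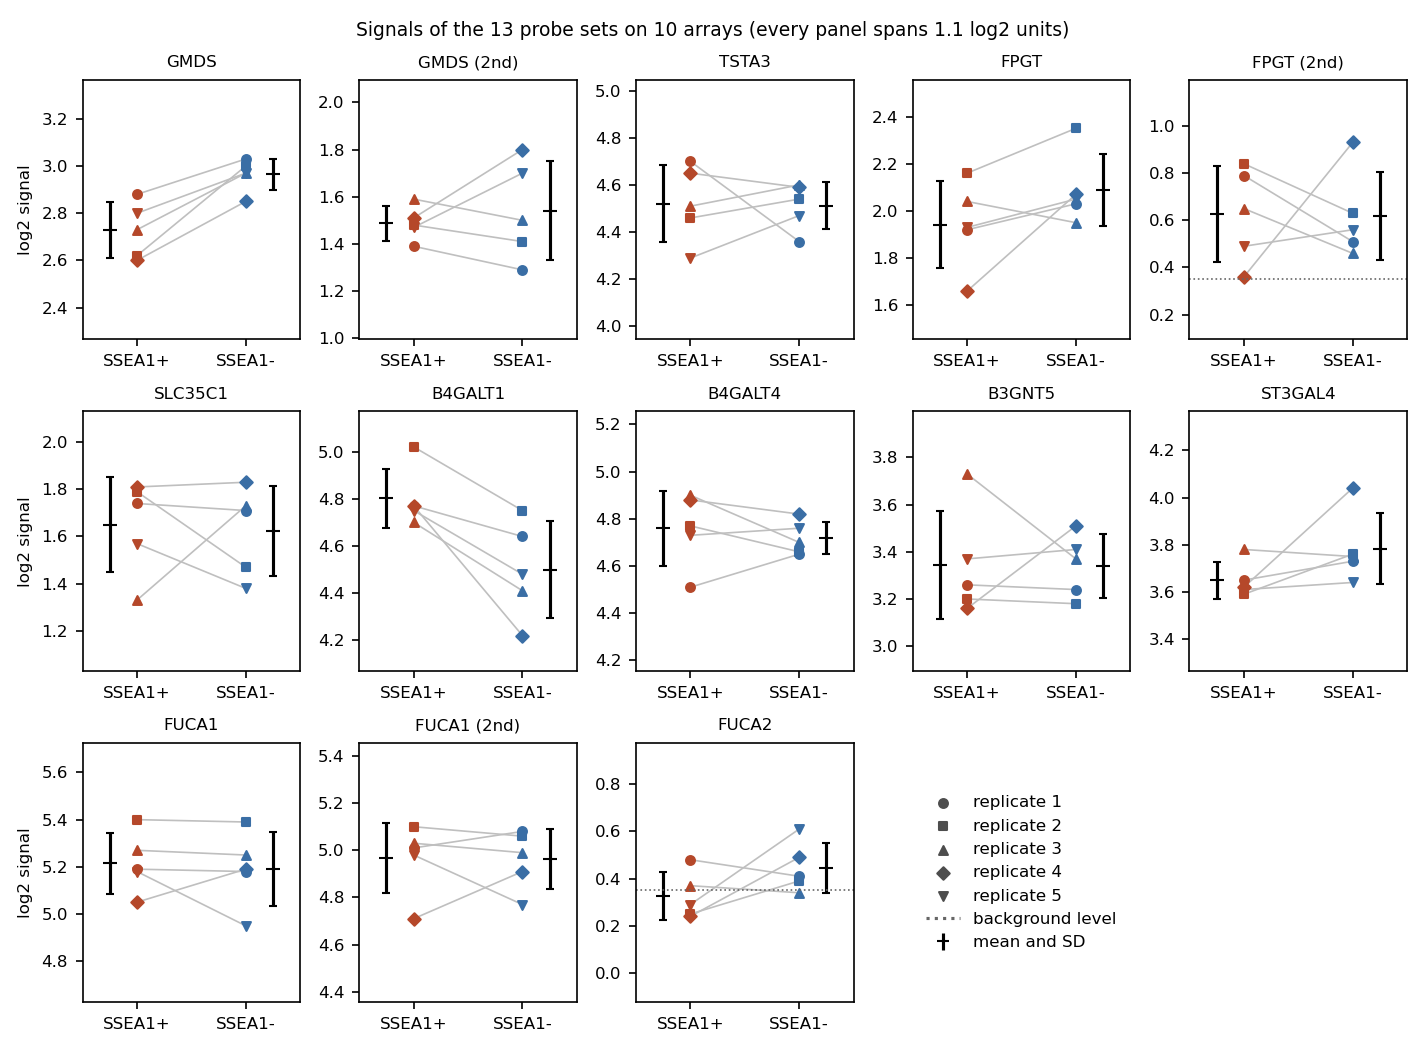
Log2 signal of each of the 13 probe sets on the 10 arrays. SSEA1+ is on the left of each panel and SSEA1- on the right; marker shapes are replicate numbers, grey lines join arrays of one number, black bars are means and SD of 5 arrays, and the dotted line is the background level of 0.35. B4GALT1 falls towards the SSEA1- side and GMDS climbs towards it in all 5 pairs, and in no other panel do all 5 lines run the same way.

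GMDS encodes GDP-mannose 4,6-dehydratase, which catalyses the first step from GDP-mannose to GDP-fucose. Its brighter probe set read 2.88, 2.62, 2.73, 2.60 and 2.80 in SSEA1+ replicates 1 to 5, against 3.03, 3.00, 2.97, 2.85 and 2.97 in SSEA1- replicates 1 to 5. Every SSEA1+ array was below its SSEA1- partner, yet the fractions overlapped, since SSEA1+ replicate 1 lay just above SSEA1- replicate 4. The means were 2.73 ± 0.12 in SSEA1+ and 2.96 ± 0.07 in SSEA1- (SD, n = 5 each), a log2 difference of -0.24 ± 0.07 (SE), or 0.849-fold with a 95% interval of 0.761 to 0.947. That difference did not pass in limma, at an adjusted p of 0.0766. In the fit with the replicate block its limma adjusted p was 0.0455, and this call ended when any 1 of the 5 pairs was left out, at 0.0570 to 0.162.

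The other GMDS probe set did not show the lower signal. It read 1.39, 1.48, 1.59, 1.51 and 1.47 in SSEA1+ replicates 1 to 5, against 1.29, 1.41, 1.50, 1.80 and 1.70 in SSEA1- replicates 1 to 5. Replicates 1, 2 and 3 were higher in the SSEA1+ fraction and replicates 4 and 5 were lower. Its log2 difference was -0.05 ± 0.10 (SE), and limma gave an adjusted p of 0.831. The files do not tell which part of the transcript each probe set reads.

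TSTA3, also called GFUS, completes GDP-fucose synthesis as the epimerase and reductase that acts after GMDS. Its signals were 4.70, 4.46, 4.51, 4.65 and 4.29 in SSEA1+ replicates 1 to 5, against 4.36, 4.54, 4.60, 4.59 and 4.47 in SSEA1- replicates 1 to 5. The fractions overlapped widely, with replicate 1 the farthest apart at 0.34 higher in SSEA1+. The log2 difference was 0.01 ± 0.09 (SE), with a 95% interval of -0.18 to 0.20 and a limma adjusted p of 0.979.

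FPGT, fucose-1-phosphate guanylyltransferase, makes GDP-fucose in the salvage pathway. The brighter of its probe sets read 1.92, 2.16, 2.04, 1.66 and 1.93 in SSEA1+ replicates 1 to 5, against 2.03, 2.35, 1.95, 2.07 and 2.05 in SSEA1- replicates 1 to 5. It was lower in the SSEA1+ array of 4 of 5 pairs, most of all in replicate 4, at -0.41. The log2 difference of -0.15 ± 0.10 (SE) had an interval of -0.36 to 0.07 and did not pass in limma, at an adjusted p of 0.470. The other FPGT probe set was near background and differed by 0.01 ± 0.11 (SE), with replicate 4 again the pair farthest apart at -0.57.

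SLC35C1 encodes the transporter that brings GDP-fucose into the Golgi, and its loss in humans causes a lack of fucosylated glycans on leukocytes. The signals were 1.74, 1.79, 1.33, 1.81 and 1.57 in SSEA1+ replicates 1 to 5, against 1.71, 1.47, 1.73, 1.83 and 1.38 in SSEA1- replicates 1 to 5. Pairs went both ways, with differences of 0.33 in replicate 2 and -0.40 in replicate 3. The difference of 0.03 ± 0.11 (SE) on the log2 scale had an interval of -0.21 to 0.27 and a limma adjusted p of 0.939.

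B4GALT1 encodes the main galactosyltransferase that adds galactose in beta-1,4 linkage to N-acetylglucosamine and thereby makes the lactosamine that Lewis X is built on. Its single probe set read 4.77, 5.02, 4.70, 4.77 and 4.75 in SSEA1+ replicates 1 to 5, against 4.64, 4.75, 4.41, 4.22 and 4.48 in SSEA1- replicates 1 to 5. SSEA1+ was higher in all 5 pairs, by 0.13 in replicate 1 to 0.55 in replicate 4, and the fractions met only where SSEA1- replicate 2 reached the level of the lower SSEA1+ arrays. The means were 4.80 ± 0.12 in SSEA1+ and 4.50 ± 0.21 in SSEA1- (SD, n = 5 each).

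This was a log2 difference of 0.30 ± 0.10 (SE), or 1.23-fold with a 95% interval of 1.06 to 1.43. B4GALT1 did not pass in limma without the block, at an adjusted p of 0.100, and rose with the replicate block, at a limma adjusted p of 0.0265. The call with the block ended without pair 2, 3 or 5, at 0.0676, 0.0824 and 0.0803, and held without pair 1 or 4, at 0.0415 and 0.0433. Without the block, B4GALT1 passed when SSEA1- replicate 2 was left out, with a difference of 0.37 and a limma adjusted p of 0.0375. Among the 13 probe sets B4GALT1 had the widest range over the 10 arrays, 0.80.

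B4GALT4 encodes another beta-1,4-galactosyltransferase, which in humans prefers certain glycolipid and sulfated acceptors. The RefSeq table of Sscrofa11.1 lists the pig gene as a long noncoding RNA, so its signal need not stand for an enzyme. Its values were 4.51, 4.77, 4.90, 4.88 and 4.73 in SSEA1+ replicates 1 to 5, against 4.65, 4.66, 4.70, 4.82 and 4.76 in SSEA1- replicates 1 to 5. The SSEA1- arrays lay inside the span of the SSEA1+ arrays. The log2 difference was 0.04 ± 0.08 (SE), with an interval of -0.14 to 0.22 and a limma adjusted p of 0.855.

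B3GNT5 encodes the N-acetylglucosaminyltransferase that starts lacto- and neolacto-series glycolipids, one of the carriers of Lewis X. The probe set read 3.26, 3.20, 3.73, 3.16 and 3.37 in SSEA1+ replicates 1 to 5, against 3.24, 3.18, 3.37, 3.51 and 3.41 in SSEA1- replicates 1 to 5. Replicates 3 and 4 differed in opposite directions, by 0.36 and -0.35, and the remaining pairs by at most 0.04 in size. The log2 difference of 0.00 ± 0.11 (SE) had an interval of -0.23 to 0.24 and a limma adjusted p of 0.992.

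ST3GAL4 encodes a sialyltransferase that caps terminal galactose and takes part in making sialyl Lewis X. Its signals were 3.65, 3.59, 3.78, 3.62 and 3.61 in SSEA1+ replicates 1 to 5, against 3.73, 3.76, 3.75, 4.04 and 3.64 in SSEA1- replicates 1 to 5. SSEA1+ was lower in 4 of 5 pairs, with SSEA1- replicate 4 standing above every other array. The difference was -0.13 ± 0.08 (SE) on the log2 scale, with an interval of -0.31 to 0.04 and a limma adjusted p of 0.411.

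FUCA1 encodes the lysosomal alpha-L-fucosidase, which removes fucose from glycans during their breakdown. The brighter FUCA1 probe set read 5.19, 5.40, 5.27, 5.05 and 5.18 in SSEA1+ replicates 1 to 5, against 5.18, 5.39, 5.25, 5.19 and 4.95 in SSEA1- replicates 1 to 5. Replicates 1, 2 and 3 were almost equal between the fractions, and replicates 4 and 5 differed in opposite directions on both probe sets. The log2 differences were 0.02 ± 0.09 and 0.00 ± 0.09 (SE), with limma adjusted p-values of 0.930 and 0.992.

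FUCA2 encodes the plasma, or secreted, alpha-L-fucosidase. It was the dimmest of the members relative to background: 2 of 5 SSEA1+ arrays and 4 of 5 SSEA1- arrays were above the background level. Its values were 0.48, 0.25, 0.37, 0.24 and 0.29 in SSEA1+ replicates 1 to 5, against 0.41, 0.39, 0.34, 0.49 and 0.61 in SSEA1- replicates 1 to 5. The difference of -0.12 ± 0.08 (SE) on the log2 scale did not pass in limma, at an adjusted p of 0.439, and at this signal it gives no firm size.

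**Figure D2:**
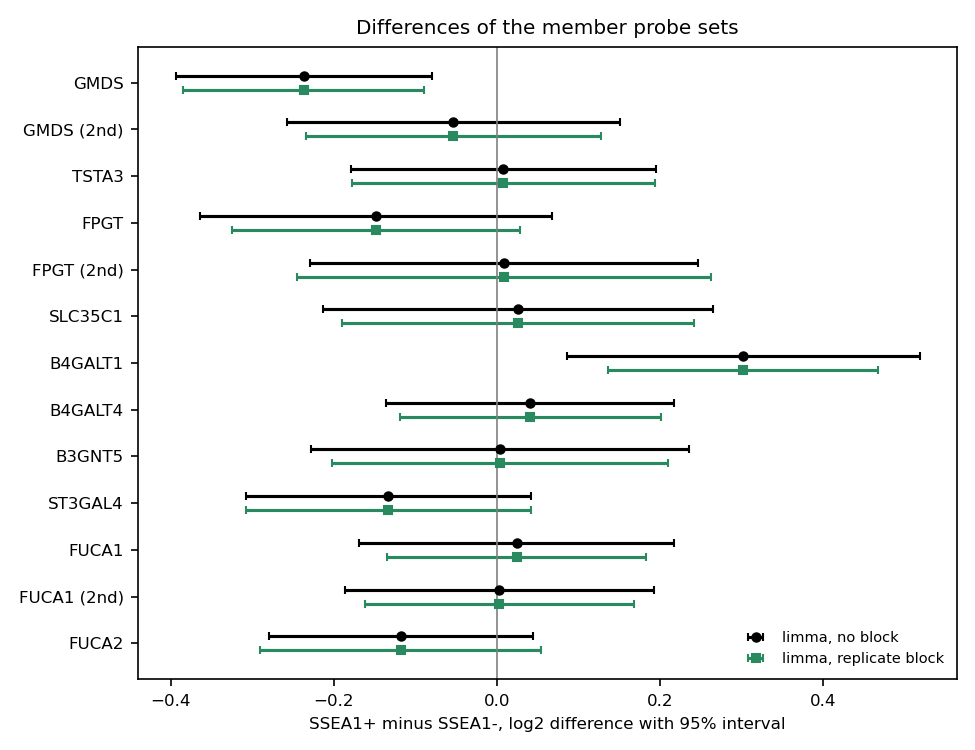
Log2 difference, SSEA1+ minus SSEA1-, of each probe set with its 95% interval from limma, without the replicate block (black circles) and with it (green squares). The intervals of B4GALT1 and of the brighter GMDS probe set do not include 0 in either fit, before any adjustment for the number of probe sets tested, and the other 11 include it in both.

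Across the members the differences were small beside those on the array as a whole. The median difference of the 13 probe sets, disregarding sign, was 0.041, against 0.094 over all 23999. Among probe sets above background on every array it was 0.033 for 12 members and 0.129 for all 14694. Of the 13 probe sets, 2 (15.4%) had an unadjusted p under 0.05 in limma, against 19.7% of all probe sets. All 5 pair differences had one sign for 2 members (15.4%), against 22.6% of all, and the fractions were apart without overlap for 0 members, against 6.28% of all. None of these shares was above that of the array as a whole, apart from the 15.4% called with the replicate block, which is 2 probe sets against the 11.5% given above.

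The pairs did not contribute alike. Replicate 4 had the largest pair difference, disregarding sign, for 5 of the 13 probe sets (38.5%), against 29.8% of all probe sets, and replicates 1 and 2 for 1 probe set each. The median pair difference in replicate 4, disregarding sign, was 0.250 for the members and 0.179 over the whole array. In that replicate B4GALT1 was higher in SSEA1+ while ST3GAL4, B3GNT5 and both probe sets of FPGT were lower, each by over 0.3. The arrays of replicate 4 also correlated less with each other than with some arrays of other numbers, once fraction means were taken out, so the pairing is least certain there.

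**Figure D3:**
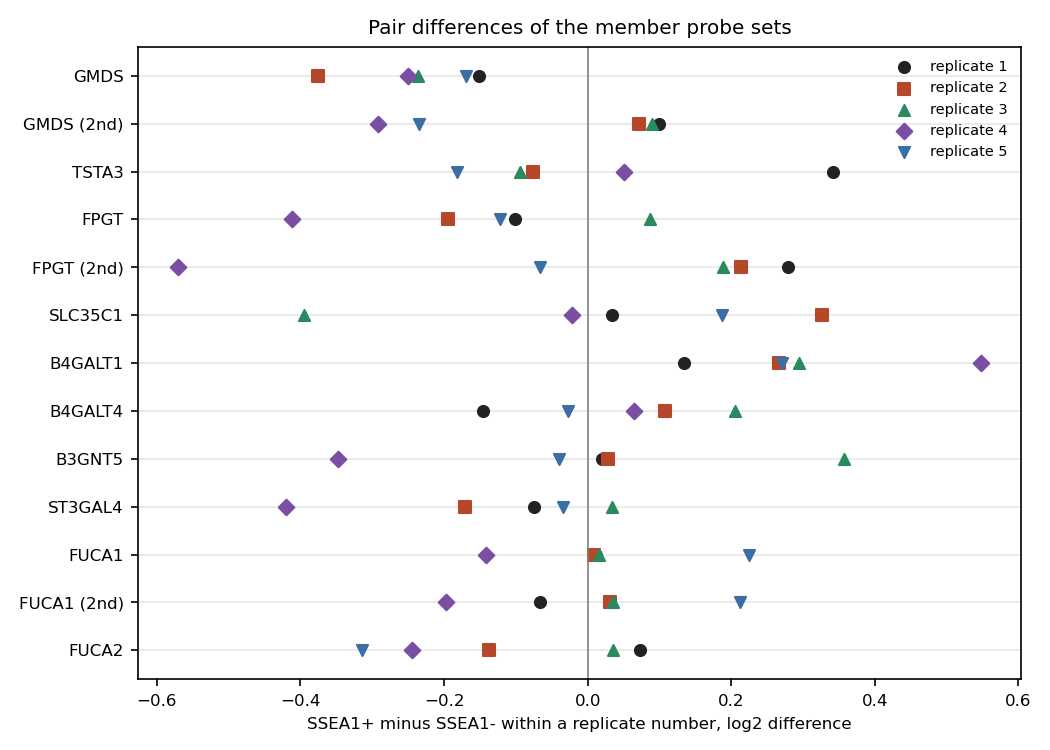
Pair differences, SSEA1+ minus SSEA1- within a replicate number, of the 13 probe sets on the log2 scale, 1 symbol per replicate. All 5 symbols lie above 0 for B4GALT1 and below 0 for the brighter GMDS probe set; the purple diamonds of replicate 4 are at the edge for FPGT, ST3GAL4 and B4GALT1.

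The poly-A level was 0.82 higher in SSEA1+ (exact two-sided permutation p = 0.00794, the smallest that 5 against 5 arrays can give), and it was entered as a covariate. The B4GALT1 difference was then 0.51 ± 0.18 (SE) with a limma adjusted p of 0.277, and the GMDS difference was -0.25 ± 0.14 (SE) with a limma adjusted p of 0.525. With the covariate and the replicate block together they were 0.49 ± 0.24 and -0.21 ± 0.22 (SE). Both kept their direction, and with the covariate limma called 13 of all probe sets. As no SSEA1+ array had a poly-A level as low as an SSEA1- array, level and fraction cannot be told apart.

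**Figure D4:**
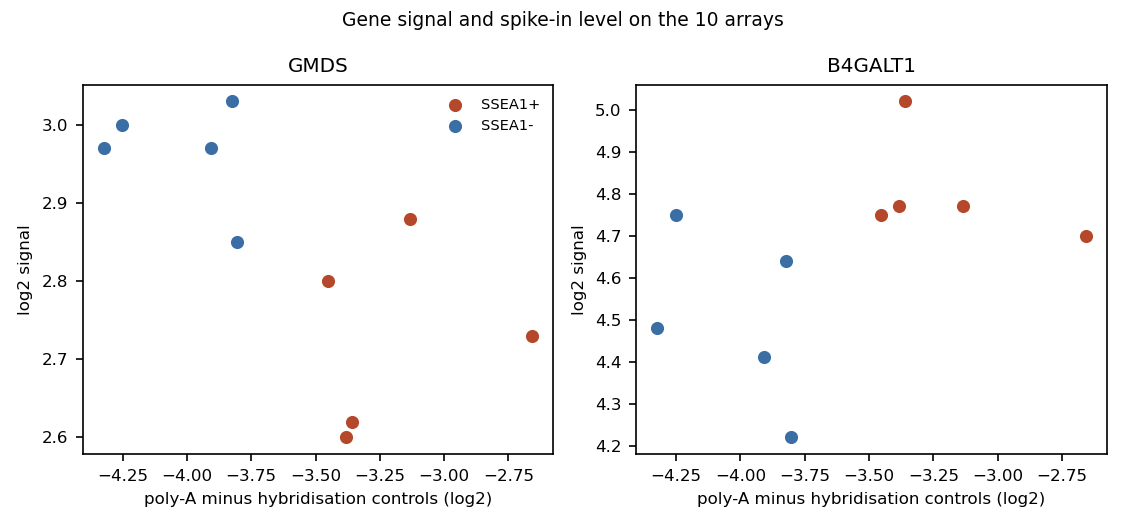
Log2 signal of GMDS (brighter probe set) and B4GALT1 against the level of the poly-A controls minus that of the hybridisation controls, log2, on each of the 10 arrays, with SSEA1+ in red and SSEA1- in blue. The fractions do not share any part of the horizontal axis.

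Other genes of Lewis X and glycan synthesis were read from 8 lists of 54 measured genes, each by its brightest probe set. In limma 1 rose and 2 fell, against 3.1% of all 6765 genes higher and 4.05% lower. With the replicate block 5 rose and 2 fell, against 5.63% higher and 8.62% lower. The median difference of the 54 was 0.004, with 28 reading higher and 26 lower in SSEA1+. An unadjusted limma p under 0.05, counted by list below, was reached by 19.7% of all probe sets, dim ones included. That share over genes read by their brightest probe sets was not counted.

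**Figure D5:**
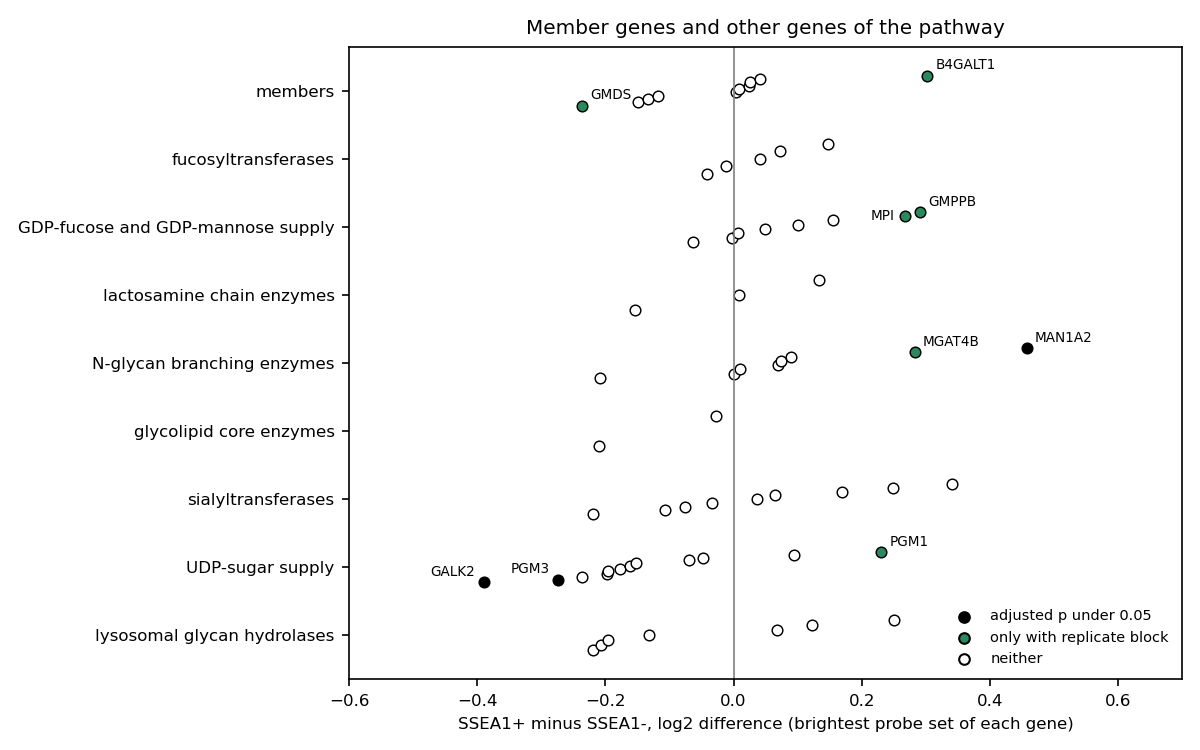
Log2 differences, SSEA1+ minus SSEA1-, of the 10 members and of 54 other genes in 8 lists, each by its brightest probe set; black points passed limma at an adjusted p of 0.05, green points passed only with the replicate block, and open points passed neither. MAN1A2 is the black point on the right, GALK2 and PGM3 are those on the left, and the rest of the points lie between -0.24 and 0.34.

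Of 5 fucosyltransferases 0 passed in limma in either fit, and at an unadjusted p under 0.05 there were also 0. FUT1, which makes the H antigen by adding fucose to galactose, read 0.86 ± 0.21 in SSEA1+ and 0.72 ± 0.11 in SSEA1- (SD, n = 5 each), a log2 difference of 0.15 ± 0.10 (SE; limma adjusted p = 0.467). POFUT2, which adds fucose directly to protein, differed by 0.07 ± 0.09 (SE; limma adjusted p = 0.719). FUT3, FUT5, FUT6, FUT7, FUT10 and FUT11 of the alpha-1,3-fucosyltransferase family had no probe set under those symbols. The step that adds the defining fucose of Lewis X was therefore not analysed here.

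Of 8 measured genes of GDP-mannose and further GDP-fucose supply, none passed in limma without the block, with 2 at an unadjusted p under 0.05, and 2 rose with it. MPI, mannose phosphate isomerase, links glycolysis to mannose-6-phosphate; it was 4.54 ± 0.12 in SSEA1+ and 4.28 ± 0.08 in SSEA1- (SD, n = 5 each), without overlap. The MPI difference was 0.27 ± 0.08 (SE), with limma adjusted p-values of 0.0569 without the block and 0.0245 with it. GMPPB, a subunit of the enzyme that makes GDP-mannose, the substrate of GMDS, differed by 0.29 ± 0.12 (SE), at 0.204 without the block and 0.0462 with it. Both were higher in 5 of 5 pairs, whereas the other GMPPB probe set, which was dimmer, differed by 0.04 ± 0.09 (SE).

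Of 3 measured genes on the lactosamine chain list and 2 glycolipid core enzymes, none passed in limma in either fit, and 0 had an unadjusted p under 0.05. On the chain list 2 genes were above background on all 10 arrays, whereas B3GNT3 was above it on 0 of 10. B4GALT3, a further beta-1,4-galactosyltransferase, differed by 0.13 ± 0.09 (SE; limma adjusted p = 0.474), and B4GAT1, a glucuronyltransferase of the dystroglycan glycan, by -0.15 ± 0.08 (SE; limma adjusted p = 0.293). B4GALT5, which makes lactosylceramide, differed by -0.03 ± 0.10 (SE; limma adjusted p = 0.927). Its dimmer probe sets differed by 0.16 and 0.14 without passing. B3GALNT1, the globoside synthase, differed by -0.21 ± 0.12 (SE; limma adjusted p = 0.397) and was above background on 9 of 10 arrays.

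Of 8 measured genes of N-glycan trimming and branching, which prepare the antennae that lactosamine is added to, 1 rose without the block and 2 with it. At an unadjusted limma p under 0.05 there were 3. MAN1A2, a Golgi mannosidase, read 1.76, 1.73, 1.73, 1.32 and 1.73 in SSEA1+ replicates 1 to 5, against 1.20, 1.30, 1.35, 0.87 and 1.26 in SSEA1- replicates 1 to 5. It was higher in every pair, and only SSEA1+ replicate 4 came down to the level of SSEA1- arrays. MAN1A2 rose by 0.46 ± 0.11 (SE), or 1.37-fold, with a limma adjusted p of 0.0266. That call ended without SSEA1+ replicate 1, 2, 3 or 5, without SSEA1- replicate 1 or 5, without pair 1, 2, 3 or 5, and with the poly-A covariate, over a range of limma adjusted p-values up to 0.391.

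Of 9 measured genes of sialic acid supply and transfer, none passed in limma in either fit on its brightest probe set, and 3 had an unadjusted p under 0.05. A dimmer probe set of ST6GAL1, another gene of this list, differed by 0.31 ± 0.14 (SE). Its limma adjusted p was 0.234 without the block and 0.0451 with it. ST3GAL3, which like ST3GAL4 caps terminal galactose, read 0.79 ± 0.19 in SSEA1+ and 0.44 ± 0.16 in SSEA1- (SD, n = 5 each). Its difference of 0.34 ± 0.10 (SE) was higher in 5 of 5 pairs and missed the threshold, at a limma adjusted p of 0.0675. The pair differences ran from 0.0087 in replicate 3 to 0.86 in replicate 5. ST3GAL3 was near background, above it on 5 of 5 SSEA1+ arrays and 4 of 5 SSEA1- arrays. ST6GALNAC4, a sialyltransferase of O-glycans and glycolipids, differed by 0.25 ± 0.07 (SE; limma adjusted p = 0.0697) without overlap of the fractions. ST3GAL3 and ST6GALNAC4 thus read in the opposite direction to ST3GAL4, none of the named genes past the threshold.

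The UDP-sugar supply list, which holds the genes that make the donors of galactose and N-acetylglucosamine, had both of the falls. With the replicate block 2 of its genes fell and 1 rose. GALK2, a kinase of N-acetylgalactosamine and galactose, read 3.70, 3.54, 3.45, 3.47 and 3.74 in SSEA1+ replicates 1 to 5, against 3.94, 3.77, 3.95, 3.94 and 4.25 in SSEA1- replicates 1 to 5. PGM3, a phosphomutase on the way to UDP-N-acetylglucosamine, read 5.96, 6.10, 6.09, 6.04 and 5.90 in SSEA1+ replicates 1 to 5, against 6.18, 6.32, 6.37, 6.44 and 6.17 in SSEA1- replicates 1 to 5. Neither gene had an SSEA1+ array as high as any SSEA1- array. GALK2 fell by 0.39 ± 0.09 (SE; limma adjusted p = 0.0280) and PGM3 fell by 0.27 ± 0.07 (SE; limma adjusted p = 0.0487).

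The PGM3 call ended in all 15 fits that left out 1 array or 1 pair, at 0.0551 to 0.149, and under repeated quantile or loess normalization. The GALK2 call ended without SSEA1+ replicate 2 or 3 without SSEA1- replicate 1, 3 or 5 and without pair 1, 3, 4 or 5, at up to 0.127, and its difference was -0.24 with the poly-A covariate at a limma adjusted p of 0.645. Of the 12 measured genes on this list 10 read lower in SSEA1+, and the median difference was -0.17, against 0.005 over all probe sets. An unadjusted limma p under 0.05 was found for 6 of the 12, against 19.7% of all probe sets. All 12 were above background on every array, while the 19.7% includes dim probe sets, so the shares are not strictly alike. The share of all genes reading lower was not counted, and whether these genes move together was not tested. Of 7 measured lysosomal hydrolases that act beside the fucosidases, 0 passed in limma in either fit, with 3 at an unadjusted p under 0.05. HEXA, a subunit of beta-hexosaminidase, differed by -0.22 ± 0.08 (SE; limma adjusted p = 0.141), and MAN2B2, a mannosidase, by 0.25 ± 0.10 (SE; limma adjusted p = 0.156). MAN2B2 was near background, above it on 8 of 10 arrays.

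For the 3 members with the smallest p-values, the genes with the most similar signals over the 10 arrays were looked up among 5406 other genes above background on every array. The correlations are descriptions: the arrays are the same for both genes, a shared difference between fractions raises them, and many candidates were searched. Nearest to B4GALT1 were MYADM (Pearson r = 0.986, Spearman rho = 0.964), PNPLA2 (r = 0.959) and RHOQ (r = 0.944). With fraction means taken out MYADM still had r = 0.980, so its likeness to B4GALT1 did not rest on the difference between fractions alone. MYADM itself differed by 0.37 between SSEA1+ and SSEA1- and did not pass in limma without the block, at an adjusted p of 0.133, whereas the replicate block gave 0.0151.

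Nearest to GMDS were PPIP5K2 (r = 0.933), SNUPN (r = 0.930) and PARG (r = 0.918), all of which passed in limma and fell, by 0.63, 0.30 and 0.71 on the log2 scale. With fraction means taken out the r of these genes with GMDS was 0.811, 0.790 and 0.748. Nearest to ST3GAL4 were JTB (r = 0.943), ATP6V1E1 (r = 0.936) and TST (r = 0.931), none of which passed. For TST the rank correlation was lower, at a Spearman rho of 0.709.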

How the data were processed

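The deposited log2 signals are RMA values, per the submitters' processing notes, and were used as the authors gave them. Neither version nor background setting of RMA is stated in the labels. No genome or sequence was used, and coordinates are not given. A build is named only for the RefSeq gene table below.

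Fractions and replicate numbers were taken from the sample titles. Of 24123 probe sets, 124 Affymetrix controls were left out and 23999 were tested, 64 reporter controls among them. The platform annotation gave 1 symbol for 10069 of these, more than 1 for 198, which stayed unnamed, and none for 13732. Of those with 1 symbol, 9961 matched a RefSeq gene table of Sscrofa11.1 by Entrez identifier, with 0 symbols changed. A gene was read from its brightest probe set, by the mean of all 10 arrays. Background was the 95th percentile of 23 controls for absent sequences. The poly-A level was the mean of 36 poly-A control probe sets minus that of 27 hybridisation controls. The number of arrays limits the precision.

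SSEA1+ was compared with SSEA1- in limma 3.58.1 under R 4.3.3 (lmFit, eBayes), with Benjamini-Hochberg adjustment over all 23999 probe sets and a threshold of 0.05. Intervals are at 95% and not adjusted. An exact two-sided permutation test over 252 assignments was used for control levels. The procedure was tested on simulated data. Figures were drawn with matplotlib 3.10.9 under Python 3.11.15.

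Replicate numbers were treated as pairs, because arrays of one number, with fraction means taken out, correlated at 0.212 in replicate 1, 0.579 in 2, 0.353 in 3, 0.122 in 4 and 0.234 in 5. The labels do not say that arrays of one number belong together, so the pairing rests on the same signals that were then compared. Those of replicate 4 correlated better with another number, at up to 0.313, as did SSEA1- replicate 5. The replicate block was one alternative, and others were a random block, eBayes with trend and robust settings, repeated quantile and cyclic loess normalization, a filter on dim probe sets, controls kept, the poly-A covariate alone and with the block, a threshold of 0.1, averaged probe sets per gene, and the omission of each array or pair. Leaving out the reporter controls, and pairs within the block, was added after the data were seen.

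Named genes were the members, FUT4 and FUT9, pathway genes past the threshold or, in a list with none, the 2 with the smallest p, and the 3 genes most correlated with each of the 3 members with the smallest p. The members and all lists were chosen with earlier results of these data known.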

Additional observations from a re-analysis of the deposited data

Results flagged for a closer look

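Each of the 13 probe sets was examined for an array far from the other 4 of its fraction, which makes 26 groups, of which chance alone would mark about 1 in 20. For B4GALT1, SSEA1+ replicate 2 stood above the other SSEA1+ arrays at 5.02, with the nearest at 4.77. SSEA1- replicate 2 was likewise the highest array of its fraction, and without SSEA1+ replicate 2 the B4GALT1 difference was 0.25. For the dimmer FUCA1 probe set, SSEA1+ replicate 4 stood below the others at 4.71, with the nearest at 4.98, and the brighter FUCA1 probe set also had its lowest SSEA1+ value, 5.05, on that array. Dixon's ratio, the gap to the nearest array over the range of the fraction, had a cut-off of 0.71. It was 0.796 for B4GALT1 and a borderline 0.711 for FUCA1. The brighter FPGT probe set in SSEA1- replicate 2 and ST3GAL4 in SSEA1- replicate 4 just missed it, at 0.709 and 0.706.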

How the results depend on the processing

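The count over all probe sets, 1398, was 2763 with the replicate block and 2473 with the block as a random effect. It was 2344 at an adjusted p of 0.1, 13 with the poly-A covariate and 4 with covariate and block. Leaving out an array or a pair gave 329 to 1765, and the count moved by over 1.5 times without SSEA1+ replicate 1 or 5, SSEA1- replicate 1, 3 or 5, or pair 1, 3 or 5. The split of 580 higher and 818 lower became 744 higher and 647 lower after repeated quantile normalization and 726 and 682 after cyclic loess. The members, 0 by probe set and by gene, numbered 2 with either form of the replicate block, 1 at an adjusted p of 0.1 and 0 to 1 in leave-outs. The block changed no other call among the members. The 3 pathway genes became 7 with the block, 9 with the random block, 9 at 0.1, 7 when a gene's probe sets were averaged and 0 to 4 in leave-outs. With the poly-A covariate limma called 0 of the 54, with 8 at an unadjusted p under 0.05, and 0 with covariate and block, with 10.

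Differences near 0 changed sign, and the cause was not tested. With the poly-A covariate, and then with covariate and block, B3GNT5 read -0.35 and -0.64, B4GALT4 -0.022 and -0.15, the dimmer FPGT probe set -0.13 and -0.62, the brighter FUCA1 probe set -0.063 and -0.14, the dimmer one -0.13 and -0.26, POFUT2 -0.061 and -0.42, and B4GALT5 0.37 and 0.57. TSTA3 read -0.060 with the covariate alone. The dimmer FPGT probe set also read -0.0093 after quantile normalization and -0.0018 after cyclic loess. In leave-outs the ranges were -0.092 to 0.092 for B3GNT5, -0.00040 to 0.10 for B4GALT4, -0.13 to 0.046 for B4GALT5, -0.059 to 0.15 for the dimmer FPGT probe set, -0.035 to 0.073 and -0.049 to 0.067 for the brighter and dimmer FUCA1 probe sets, -0.12 to 0.011 for the dimmer GMDS probe set, -0.049 to 0.13 for SLC35C1 and -0.075 to 0.067 for TSTA3. B4GALT1 at 0.23 to 0.51 and the brighter GMDS probe set at -0.28 to -0.20 kept their sign in all 25 alternatives. So did the brighter FPGT probe set, ST3GAL4 and FUCA2, which were not close to a call. The replicate block, fixed or random, the trend and robust settings and the dim filter leave the difference itself unchanged. So do keeping the controls and leaving out the reporter controls, and none of these could change a sign. As all 5 pairs of B4GALT1 and of the brighter GMDS probe set had one sign, leaving out a pair could not change theirs. Signal over background limits FUCA2 and the dimmer FPGT probe set most.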

Other observations

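Genes of the lists that the rule for named genes did not take in are given here as values chosen after they were seen. Among N-glycan branching enzymes MGAT4B, which starts an additional antenna, averaged 5.38 ± 0.12 in SSEA1+ and 5.09 ± 0.15 in SSEA1- (SD, n = 5 each), with limma adjusted p-values of 0.0765 and, with the replicate block, 0.0289. MGAT1, which adds the first antenna, averaged 4.23 ± 0.10 in SSEA1+ and 4.43 ± 0.08 in SSEA1- (SD, n = 5 each) without overlap, at a limma adjusted p of 0.113. PGM1, which interconverts glucose phosphates, averaged 5.74 ± 0.08 in SSEA1+ and 5.51 ± 0.08 in SSEA1- (SD, n = 5 each), at 0.0673 and, with the replicate block, 0.0493.

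GALT, the uridylyltransferase of galactose breakdown, read lower in SSEA1+ on all 3 of its probe sets. The differences were -0.20, -0.27 and -0.42, with limma adjusted p-values of 0.0810, 0.100 and 0.0140, so that its dimmest probe set passed and the brightest did not. CMAS, which activates sialic acid, averaged 5.46 ± 0.16 in SSEA1+ and 5.68 ± 0.03 in SSEA1- (SD, n = 5 each) without overlap, at a limma adjusted p of 0.134. FUT8, the fucosyltransferase of the N-glycan core, differed by 0.04 on its brighter probe set and -0.15 on its dimmer one, neither past the threshold, and FUT2 was below background on all 10 arrays.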
